A study of Homo sapiens with 12 samples.

Results

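The comparison described here is the short withdrawal of testosterone (T) from VCaP-T cells: 6 of the 12 RNA-sequencing libraries of the series, 3 of cells kept at 10 nM T (VCaP-T 10nM T) and 3 of cells given 0.1 nM T during 48 h (VCaP-T 0.1nM T 48h). The libraries were chosen by their labels, not by any measured value. VCaP is a prostate cancer cell line that carries the TMPRSS2-ERG gene fusion. VCaP-T is a subline of it that was kept long in hormone-stripped serum with 10 nM T and was sampled at passage 84. Both groups therefore share the stripped serum and differ in the T dose and the 48 h at the lower one. The other 6 libraries are of VCaP-CT, a subline derived from VCaP-T that grows at 0.1 nM T and was sampled at passage 73. Of these, 3 are of cells at 0.1 nM T and 3 of cells given 10 nM T during 48 h. All 6 enter the statistical model, and their own 2 groups are set beside the depletion once, at the end. Whether the 3 libraries of a group are separate cultures is stated nowhere. The p-values thus reflect only how much these libraries vary, and that variation may be technical.

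Androgens such as T and dihydrotestosterone regulate genes in prostate epithelium largely from DNA elements that are far from gene starts. They switch on secretory genes such as the kallikreins and hold down another set of genes. When the hormone is withdrawn, induced genes are known to fall and repressed genes to rise, and prostate cancer cells that depend on androgen slow their growth.

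Each value below is a normalized count, that is the fragments counted over a gene after scaling the libraries to a common effective size, and a set of 3 values follows the order of replicates 1, 2 and 3. A fold change is given on the log2 scale with its standard error (SE), positive where the gene was higher at 0.1 nM T. The test was the quasi-likelihood one of edgeR, and p-values were adjusted by the method of Benjamini and Hochberg. A gene is called where the adjusted p was under 0.01, the log2 fold change was over 1 in size and the group medians differed by over 13 normalized counts. A member of a gene list is said to have risen or fallen where its adjusted p was under 0.01.

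Depleted replicate 2 stood apart before any group comparison. Its correlation with replicates 1 and 3 over log2 normalized counts was 0.962 and 0.967, against 0.992 or more within the other groups and 0.994 between depleted replicates 1 and 3. Of 12253 genes with over 100 normalized counts, 1419 lay more than 2-fold from the mean of the other 2 depleted libraries, against 1 to 4 genes for the libraries at 10 nM T. The gap moved with the total exon length of the gene (Pearson r -0.513 across genes, which are not independent). Genes with 59 to 1996 bases of exon were high in replicate 2 by a median log2 gap of 0.72, and genes with 9815 bases or more had a median gap of -0.62. Counts of called genes and of list members are therefore given with and without this library. Fold changes and p-values of single genes are from all libraries unless stated otherwise. The same holds for the promoter shares, chromosome shares and runs of neighbouring genes. The part of RNA quality or library preparation in it was not tested. The 6 libraries held between 30174831 and 39981868 counted fragments, the lowest being replicate 2.

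**Figure D1:**
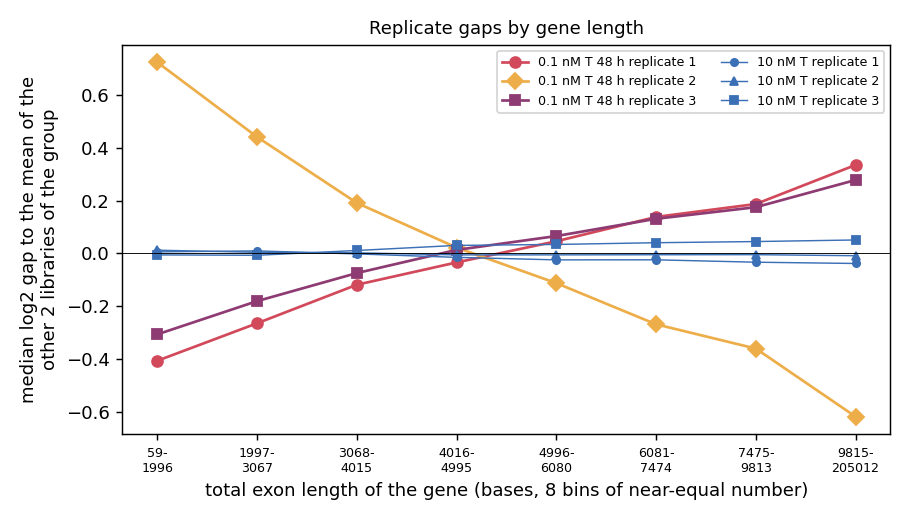
Median log2 gap of each VCaP-T library to the mean of the other 2 libraries of its group (vertical axis) in 8 bins of genes ordered by total exon length in bases (horizontal axis). Depleted replicate 2 falls from 0.72 in the shortest genes to -0.62 in the longest, its 2 sisters mirror it because their gaps include it, and the 10 nM libraries stay within 0.0507 of 0.

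Well-known androgen targets were read first. KLK3, which encodes prostate-specific antigen, had 79924, 78616 and 77771 normalized counts at 10 nM T and 36874, 49273 and 36589 after depletion, so that all 3 depleted libraries lay below all 3 at 10 nM and replicate 2 was the least low. Its log2 fold change was -0.95 ± 0.11, adjusted p = 9.31e-05, and -1.10 without replicate 2. KLK2, the neighbouring kallikrein, went from 317433, 310823 and 314530 to 174883, 181556 and 171093 (-0.84 ± 0.07, adjusted p = 1.07e-05). The 2 genes together took 1.14 to 1.15% of all counted fragments at 10 nM T and 0.611 to 0.635% after depletion.

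FKBP5, a cochaperone of steroid receptors, showed 18282, 18596 and 19501 at 10 nM and 6300, 4689 and 6551 after depletion (-1.68 ± 0.11, adjusted p = 1.56e-06). TMPRSS2, a membrane serine protease, was at 13453, 13191 and 13217 and then at 5750, 5442 and 5615, with nearly equal values in all 3 depleted libraries (-1.25 ± 0.066, adjusted p = 3.19e-07). ERG, the ETS factor that the fusion puts under the TMPRSS2 promoter in this line, fell alongside, from 15181, 15088 and 15801 to 7582, 6138 and 7431 (-1.12 ± 0.085, adjusted p = 5.11e-06). In bulk samples such as these, fewer cells of a kind and less RNA per cell cannot be told apart.

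The RefSeq promoter window of KLK3 (GRCh38.p14, chr19:50854665-50854964, plus strand, 250 bases before to 50 after the gene start) is shown because the fall of KLK3 is the reference response of the comparison. The capitals mark AGAACA, the hexamer that the androgen response element repeats, found 170 bases before the gene start.
KLK3: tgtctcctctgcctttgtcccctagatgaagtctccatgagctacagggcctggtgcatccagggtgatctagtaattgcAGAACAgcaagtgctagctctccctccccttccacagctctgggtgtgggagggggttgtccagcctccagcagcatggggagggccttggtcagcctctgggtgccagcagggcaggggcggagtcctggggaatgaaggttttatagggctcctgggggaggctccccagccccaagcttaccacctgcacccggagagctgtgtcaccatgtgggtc
The full element, the hexamer and its inverted copy spaced by 3 bases, searched on both strands, was in 0 of the 12048 promoter windows that matched a tested gene by symbol. The single hexamer, added after this result was seen, was in 9.45% of those windows, in 9.09% of the 77 of genes called lower and in 10.9% of the 330 of genes called higher. KLK3 did not reach the fold threshold for a call. Of the androgen-induced genes listed below, the hexamer was in 4 of the 21 windows of members that fell, KLK3 among them, and in 4 of the 37 of all members. The hexamer is part of the full element, so matches of the 2 overlap. Letters in these windows are a description and say nothing of binding.

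**Figure D2:**
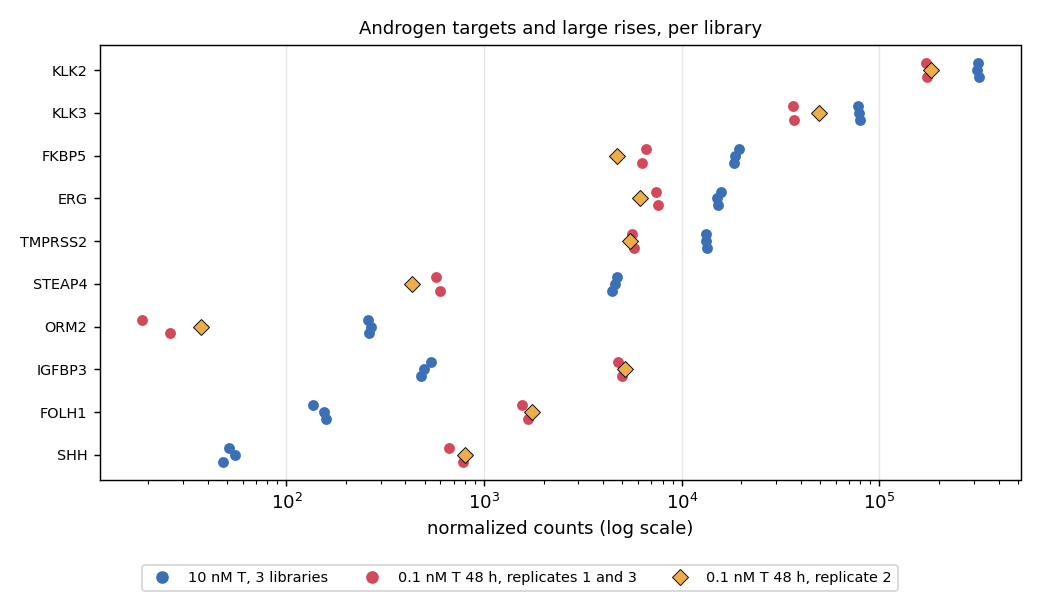
Normalized counts (logarithmic horizontal axis) of androgen targets, of ORM2 and of 3 large rises in each VCaP-T library, with points for the 3 libraries at 10 nM T and the 3 at 0.1 nM T for 48 h and a diamond for depleted replicate 2. Replicate 2 lies on the side of its sisters for every gene shown.

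Across the transcriptome more genes rose than fell. Of 19162 genes tested, 472 were called higher (2.46%) and 130 lower (0.678%) after depletion, with median log2 fold changes of 1.40 and -1.40 among them. Over 4-fold changes were seen in 95 and 29 genes and over 8-fold changes in 19 and 6. At an adjusted p under 0.01 alone, 1178 genes were higher (6.15%) and 733 lower (3.83%).

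Leaving out depleted replicate 2 changed the calls. The model then called 585 genes higher (2.98%) and 133 lower (0.677%) of 19649, and 404 and 103 of these were also called with all libraries, so that 68 higher and 27 lower calls were lost and 181 and 30 gained. Of the 602, 0 changed sign, and 601 kept an adjusted p under 0.01. At the adjusted p alone the counts rose to 2835 higher (14.4%) and 2485 lower (12.6%). With the spread taken from the 6 VCaP-T libraries only, 163 were called higher (0.891%) and 56 lower (0.306%), and at the adjusted p alone 202 (1.1%) and 81 (0.443%). Counts for each gene list are given from all 3 fits, and each is to be read beside these shares of all genes. The lists were chosen with earlier results of these data known, so the counts are a description and not a test. Leaving out 1 library at 10 nM T in turn gave between 308 and 339 genes higher and between 98 and 105 lower, the lowest of each without replicate 2 at 10 nM. The median over all genes tested was 0.037 with all libraries and 0.018 without replicate 2, and the list medians below stand beside these values.

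**Figure D3:**
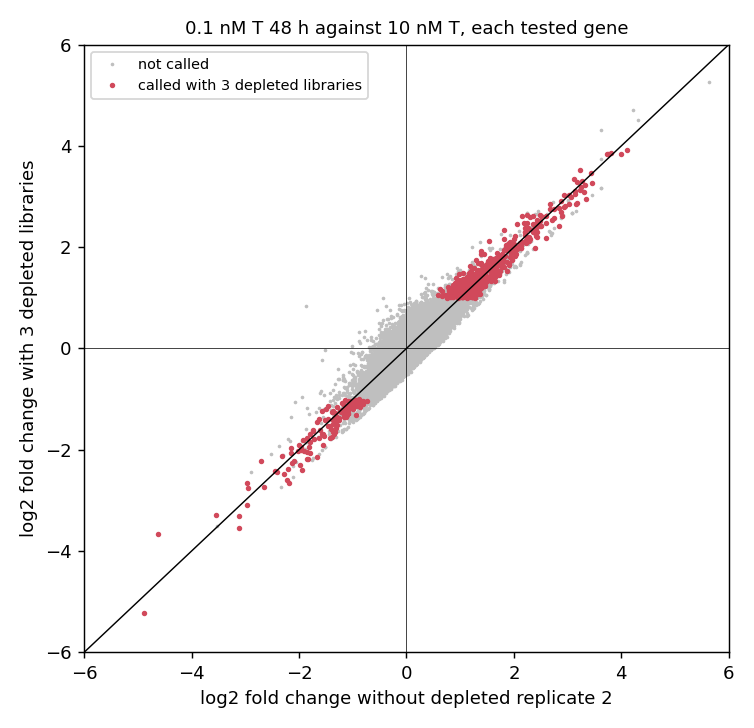
Log2 fold change of each tested gene, 0.1 nM T for 48 h against 10 nM T, with the 3 depleted libraries (vertical axis) and without depleted replicate 2 (horizontal axis). The 602 called genes, in red, lie along the diagonal with the same sign on both axes, and the uncalled genes around 0 scatter widely.

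The largest rise among genes that reached 100 normalized counts was that of SHH, the sonic hedgehog ligand. It had 47.8, 55.1 and 51.2 at 10 nM T and 784, 796 and 665 after depletion, a log2 fold change of 3.86 ± 0.17, adjusted p = 9.47e-08. LUM, which encodes the matrix proteoglycan lumican, went from 17, 17.1 and 27.4 to 260.4, 341 and 298 (3.85 ± 0.20, adjusted p = 3.02e-07). HS3ST3B1, a heparan sulfate sulfotransferase, stood at 13.8, 14.3 and 12.8 and then at 185, 217 and 186 (3.83 ± 0.29, adjusted p = 5.11e-06). In each of the 3 genes depleted replicate 2 was the highest of all libraries.

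FOLH1, the prostate-specific membrane antigen gene, rose from 159, 155 and 135 to 1661, 1742 and 1560 (3.46 ± 0.12, adjusted p = 2.97e-08). IGFBP3, a secreted binder of insulin-like growth factors, had the smallest p-value of the comparison among named genes, with 478, 493 and 538 at 10 nM and 4955, 5150 and 4764 after depletion (3.30 ± 0.088, adjusted p = 1.85e-09). In both the groups lay far apart, with no overlap, as in all 602 called genes. A lack of overlap in this direction held for 20.4% of all genes tested. LTF, the iron-binding milk protein lactoferrin, had 112, 123 and 132 and 985, 1134 and 899 (3.04 ± 0.13, adjusted p = 9.47e-08). REG4, a secreted lectin of the gut, was at 661, 695 and 698 and 3973, 5034 and 3711 (2.63 ± 0.11, adjusted p = 9.47e-08). NR4A2, an orphan nuclear receptor encoded by an immediate early gene, was at 46.7, 24.7 and 29.3 and 343, 278 and 321 (3.23 ± 0.19, adjusted p = 6.72e-07).

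SCUBE2, which helps release hedgehog ligands from cells, rose 3.08 on the log2 scale, with 906, 459 and 764 in the depleted libraries. In PPFIA2, a liprin scaffold protein (813, 317 and 718), ADGRF1, an adhesion receptor (174, 105 and 168), and LRRC2, a leucine-rich repeat protein (130.2, 72.8 and 114), replicate 2 was likewise lower than its sisters yet far above the libraries at 10 nM, which did not exceed 97.9, 24.7 and 12.4. WNT2, a secreted WNT ligand, had 21.2, 11.4 and 19.2 and 144, 141 and 137, and GPR85, an orphan receptor, 20.2, 19 and 16.5 and 112, 126 and 138. CLC, the galectin known from eosinophils, rose 2.62, with replicate 2 highest at 189.

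**Figure D4:**
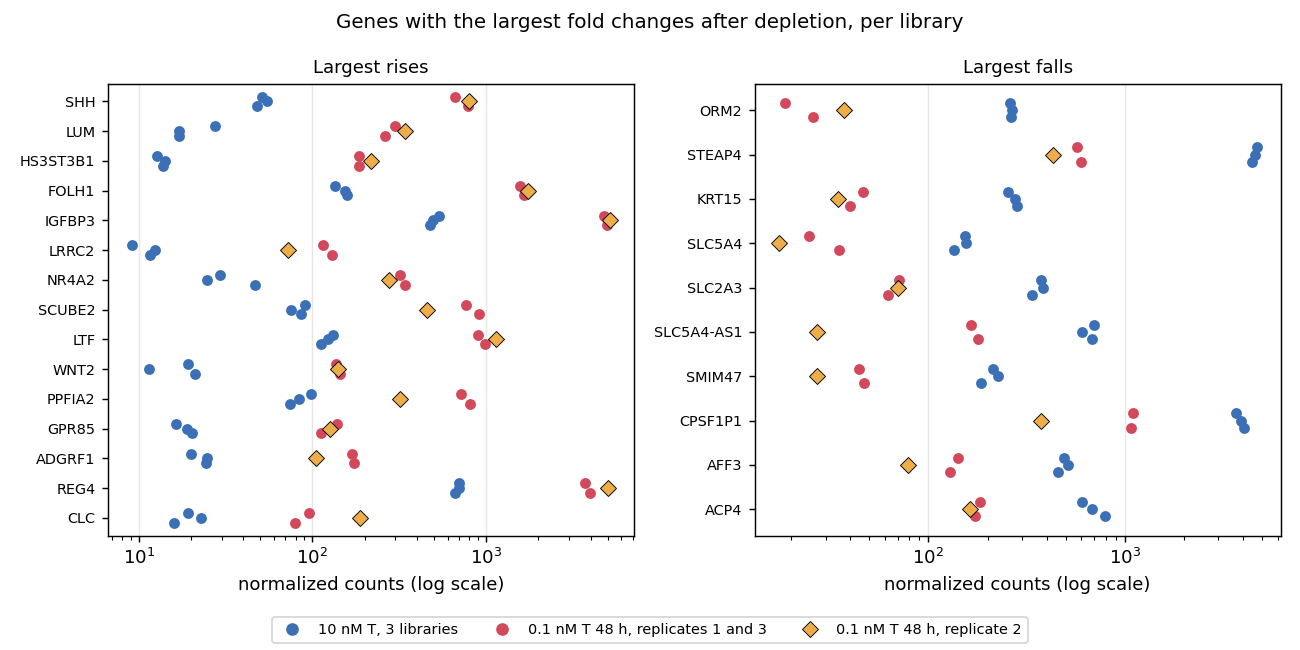
Normalized counts (logarithmic horizontal axes) in each VCaP-T library of the 15 genes with the largest rises and the 10 with the largest falls among genes called with and without depleted replicate 2 that reached 100 normalized counts, ordered by log2 fold change. For every gene shown the 3 libraries at 10 nM T and the 3 at 0.1 nM T are separated, with replicate 2 (diamond) on the depleted side. The same separation held in all 602 called genes, so it follows from how the genes were chosen.

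The steepest fall by the same rule was that of ORM2, an acute phase plasma protein gene, from 262, 266 and 259.9 to 25.9, 37 and 18.6 (-3.29 ± 0.28, adjusted p = 1.33e-05). STEAP4, a metalloreductase known as an androgen target, fell from 4455, 4605 and 4694 to 600.1, 429.7 and 569 (-3.10 ± 0.13, adjusted p = 8.41e-08). KRT15, a keratin of basal epithelium, went from 284, 277 and 254 to 40.1, 34.6 and 46.4 (-2.74 ± 0.21, adjusted p = 5.24e-06). These 3 had tight values at 10 nM and, like all called genes, no overlap, which held in this direction for 17.6% of all genes tested. SLC2A3, which encodes the glucose transporter GLUT3, stood at 336, 385 and 373 and then at 62.6, 70.4 and 71.2 (-2.42 ± 0.11, adjusted p = 1.4e-07), and SLC5A4, of the sodium and glucose cotransporter family, at 135, 156 and 154 and 35, 17.3 and 24.8 (-2.49 ± 0.22, adjusted p = 1.66e-05). AFF3, of a family of transcription elongation factors, fell 2.04 on the log2 scale, ACP4, an acid phosphatase, 2.00, and the small membrane protein gene SMIM47 2.38. CPSF1P1, a transcribed pseudogene whose counts leave out fragments that also match CPSF1, was at 4062, 3911 and 3676 and 1077, 373 and 1098. SLC5A4-AS1, whose exons overlap other genes over 32.6% of their length, was at 678, 608 and 699 and 179, 27.2 and 164. In both, replicate 2 lay well below its sisters.

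Measured by the difference in normalized counts, the called rises were led by GPX3, a secreted glutathione peroxidase, with 16902, 16548 and 16147 and 35067, 53640 and 37321 (1.34 ± 0.13, adjusted p = 3.57e-05). CAMK2N1, an inhibitor of calmodulin kinase II, had 8410, 8705 and 8970 and 19739, 29158 and 20291, and ITM2A, a membrane protein, 6377, 6628 and 6802 and 18057, 25336 and 18854. In these 3 genes replicate 2 exceeded both sisters. THBS1, the matrix protein thrombospondin, had 9031, 8922 and 9102 and 24680, 15984 and 23120, with replicate 2 between the libraries at 10 nM and its sisters. TRIB1, a pseudokinase, went from 6162, 6155 and 6389 to 16386, 18025 and 16261 (1.44 ± 0.069, adjusted p = 1.74e-07), and DHRS7, a short-chain dehydrogenase whose exons overlap others over 27.5% of their length, from 9767, 9713 and 9981 to 16512, 25751 and 16737, at 0.76 without replicate 2 and so under the fold threshold.

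Among called falls the difference was largest for FASN, the fatty acid synthase, which also varied most at 10 nM: 49308, 41007 and 30580 against 19796, 12927 and 22245 (-1.14 ± 0.21, adjusted p = 0.00245). ACSL3, which activates long-chain fatty acids, was steadier, at 29173, 29801 and 31334 and 13427, 13534 and 13975 (-1.14 ± 0.073, adjusted p = 1.35e-06). SLC26A2, a sulfate transporter, had 14396, 15369 and 15660 and 7170, 5265 and 7075. TFRC, the transferrin receptor, had 20392, 20997 and 21962 and 10712, 8645 and 11162, and ZNF761, a zinc finger gene, 20061, 20551 and 22420 and 11023, 8175 and 10812. Without replicate 2 the last 2 were at -0.95 and -0.95, and FASN at -0.94, just under the fold threshold.

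Of the listed androgen-induced genes, 27 of 48 tested fell and 2 rose, with a median of -0.665. The fit without replicate 2 gave a median of -0.579, and 35 fell and 3 rose, and with the 6 libraries alone 10 fell and 1 rose. Beside the targets above, MAF, a transcription factor, fell from 566, 536 and 559 to 155, 186 and 133, LIFR, the receptor of leukemia inhibitory factor, from 9755, 10209 and 10696 to 3539, 2244 and 3491, and CENPN, a centromere protein, from 3091, 3206 and 3304 to 1586, 1566 and 1673. The exceptions that rose were ARG2, a mitochondrial arginase with 37.4% exon overlap (1096, 1046 and 1146 to 1841, 1795 and 1891), and STEAP1 (3911, 3854 and 4221 to 5018, 7252 and 5265). Among androgen-repressed genes, 13 of 27 tested rose and 2 fell with all libraries, and 15 rose and 3 fell without replicate 2, at medians of 0.654 and 0.761, and with the 6 libraries alone 6 rose and 0 fell of 26. DDC, the enzyme that makes dopamine and serotonin, rose from 1722, 1660 and 1780 to 6300, 8459 and 6069 (2.01 ± 0.12, adjusted p = 8.14e-07), and OPRK1, the kappa opioid receptor, from 364, 396 and 378 to 1729, 1287 and 1569 (2.01 ± 0.12, adjusted p = 9.37e-07). The falls in this list were in BMPR1B, a BMP receptor, from 2636, 2662 and 2770 to 1981, 1789 and 2020, and in IGF1R, given with IGF signalling.

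Some enzymes that inactivate or convert androgens rose. In the list of steroid synthesis and inactivation, 7 of 27 tested rose and 2 fell (median log2 fold change 0.317). With replicate 2 left out, 10 rose and 3 fell of 28 (median 0.203), and with the 6 libraries alone 2 rose and 1 fell of 26. AKR1C3, which makes T from androstenedione, had 152, 149 and 184 at 10 nM and 547, 1042 and 592 after depletion (2.16 ± 0.22, adjusted p = 4.23e-05). UGT2B17 and UGT2B15 are near-identical enzymes that conjugate androgens with glucuronic acid, and fragments that matched both places were left out of the counts. UGT2B17 had 1.06, 6.66 and 6.41 at 10 nM and 40.1, 65.5 and 46.4 after depletion. UGT2B15 had 5.31, 11.4 and 18.3 at 10 nM and 60.1, 53.1 and 62.9 after depletion. DHRS9 and HSD17B14, of the hydroxysteroid dehydrogenase families, rose 1.03 and 1.13. CYP1B1, which hydroxylates estrogens, fell from 848, 843 and 939 to 444, 448 and 474.

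Genes of cholesterol synthesis and uptake fell in part. In that list 10 of 37 tested fell and 3 rose, with a median of -0.268. Without replicate 2 the median was -0.386, and 20 fell and 5 rose, and with the 6 libraries alone 1 fell and 0 rose. HMGCS1, an early enzyme of the pathway, went from 6559, 6872 and 6989 to 4236, 3451 and 4355 (-0.76 ± 0.089, adjusted p = 0.000123). The sterol sensor INSIG1 had 5996, 6179 and 6249 and 3730, 4671 and 3723. STARD4, a sterol carrier, was the only member called with all libraries (-1.01 ± 0.093, adjusted p = 2.09e-05), and it stood at -0.95 without replicate 2. The members that rose were INSIG2, TM7SF2 and NPC2, at 0.58, 0.82 and 0.93. SREBF2, which encodes the main activator of the pathway, had 10724, 9915 and 9702 and 9853, 6747 and 9974, a difference that did not pass the test with or without replicate 2 (adjusted p = 0.305 and 0.686).

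The promoter windows of HMGCS1 (chr5:43313363-43313662, minus strand) and INSIG1 (chr7:155297628-155297927, plus strand), both from RefSeq on GRCh38.p14, are shown because these sterol genes fell together. The capitals mark CCAAT or its reverse complement ATTGG, searched on both strands, the box bound by NF-Y.
HMGCS1: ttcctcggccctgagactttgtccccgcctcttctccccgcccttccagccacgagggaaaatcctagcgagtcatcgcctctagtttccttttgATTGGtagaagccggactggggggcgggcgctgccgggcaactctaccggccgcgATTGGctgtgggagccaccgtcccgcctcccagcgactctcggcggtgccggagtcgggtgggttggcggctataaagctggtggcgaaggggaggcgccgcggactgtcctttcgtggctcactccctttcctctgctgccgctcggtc
INSIG1: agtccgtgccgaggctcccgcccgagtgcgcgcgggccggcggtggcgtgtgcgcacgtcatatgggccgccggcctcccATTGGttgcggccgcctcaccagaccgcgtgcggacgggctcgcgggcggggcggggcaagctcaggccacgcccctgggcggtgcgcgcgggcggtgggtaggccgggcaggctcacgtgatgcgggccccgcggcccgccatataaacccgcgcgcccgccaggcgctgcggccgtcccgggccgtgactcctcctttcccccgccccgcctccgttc
The box was in 5 of the 5 windows found for members of the sterol list that fell, in 64.3% of the 28 windows of all its members and in 36.4% of the windows of all genes tested. The sterol regulatory element, searched in 1 form on both strands, was in 1 of the 28, that of SREBF2, and in 5 of the 12048. Other forms of the element were not searched.

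Fatty acid genes moved both ways. In the list of fatty acid synthesis and storage, 6 of 34 tested fell and 3 rose with all libraries, and 10 fell and 7 rose without replicate 2, at medians of 0.0252 and 0.000185, and with the 6 libraries alone 2 fell and 1 rose of 33. SCD, the desaturase that makes oleic acid, fell from 46528, 45926 and 47993 to 31693, 21826 and 31667, and ELOVL6, an elongase, by 0.73 on the log2 scale. ACSL5, another activator of fatty acids, rose from 7854, 8114 and 8451 to 15709, 15548 and 15819. In fatty acid oxidation, 4 of 30 tested rose and 3 fell (median log2 fold change 0.111). In the other fit, without replicate 2, 6 rose and 3 fell (median 0.0514), and with the 6 libraries alone 1 rose and 1 fell. The coactivators PPARGC1A and PPARGC1B fell, at -0.88 and -1.16. Of the phospholipases A2 and prostaglandin genes, 9 of 25 tested rose and 3 fell, with a median of 0.427. A median of 0.367 was found without replicate 2, where 11 rose and 5 fell, and with the 6 libraries alone 3 rose and 0 fell. PLA2G2A, a secreted phospholipase, rose from 2161, 2292 and 2145 to 8430, 11168 and 7822 (2.06 ± 0.12, adjusted p = 7.66e-07), while HPGD, which inactivates prostaglandins, fell from 59334, 61496 and 62680 to 32862, 40211 and 34495.

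Genes of glucose uptake and glycolysis fell in part. There 14 of 33 tested fell and 0 rose with all libraries, and 22 fell and 1 rose without replicate 2, at medians of -0.337 and -0.405, and with the 6 libraries alone 4 fell and 0 rose. Beside GLUT3, the fructose transporter gene SLC2A5 fell from 169, 126 and 125 to 34.2, 27.2 and 46.4 (-1.95 ± 0.21, adjusted p = 7.43e-05), and PFKFB2, which makes an activator of glycolysis, from 3123, 3216 and 3331 to 1421, 1009 and 1279 (-1.38 ± 0.11, adjusted p = 5.97e-06). HK2, a hexokinase, went from 2339, 2218 and 2326 to 1161, 908 and 1326, LDHA, lactate dehydrogenase, from 19343, 19719 and 20771 to 11412, 14015 and 11993, and ENO1, enolase, from 51431, 49092 and 49684 to 32030, 42656 and 34205. In GAPDH, a glycolytic enzyme, the difference of -0.25 passed the test only without replicate 2 (adjusted p = 0.0417 and 0.000431). The list of hypoxia genes shares some of these members, and there 10 of 24 tested fell and 2 rose (median log2 fold change -0.354). Without replicate 2, 14 fell and 3 rose (median -0.356), and with the 6 libraries alone 1 fell and 1 rose. VEGFA, the vessel growth factor, fell from 2138, 2160 and 2156 to 1374, 1188 and 1394, and HIF1A, the oxygen-regulated factor, from 9724, 9689 and 10189 to 6916, 5084 and 7088. MXI1, an antagonist of MYC, rose from 277, 272 and 296 to 629, 654 and 646 (1.19 ± 0.087, adjusted p = 4.02e-06).

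Some protein folding genes fell. No ER folding gene passed the fold threshold for a call in either fit. Of the ER folding and unfolded protein response genes, 11 of 39 tested fell and 0 rose, with a median of -0.332. The fit without replicate 2 gave a median of -0.396, and 30 fell and 1 rose, and with the 6 libraries alone 0 fell and 0 rose. HSPA5, the main ER chaperone BiP, had 75860, 74542 and 74410 and 48681, 69169 and 50934. Replicate 2 lay near the range at 10 nM, and the log2 fold change of -0.41 (adjusted p = 0.0247) became -0.59 (adjusted p = 3.4e-09) without it. HYOU1, another ER chaperone, went from 17341, 16604 and 16859 to 11210, 7392 and 11470, and PDIA4, a disulfide isomerase, from 27807, 26865 and 26775 to 18770, 21123 and 19956. XBP1, the factor of the response, went the other way, with 15673, 15639 and 16149 and 18737, 28060 and 19531, and passed the test without replicate 2 only (log2 fold change 0.27, adjusted p = 2.61e-05). Of the heat shock proteins and cochaperones, 4 of 23 tested fell and 0 rose with all libraries, and 13 fell and 0 rose without replicate 2, at medians of -0.106 and -0.315, and with the 6 libraries alone 2 fell and 0 rose. Of ATF4 targets, 5 of 28 tested fell and 0 rose (median log2 fold change 0.0373). With replicate 2 left out, 9 fell and 2 rose (median -0.118), and with the 6 libraries alone 2 fell and 0 rose. DDIT4, an inhibitor of mTORC1 whose exons overlap others over 41.2% of their length, fell from 615, 549 and 498 to 201, 268 and 225.

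Some genes of DNA replication fell as well. In the G1/S list, 10 of 44 tested fell and 0 rose, with a median of -0.277. Without replicate 2 the median was -0.326, and 30 fell and 0 rose, and with the 6 libraries alone 0 fell and 0 rose. CDC6, which loads the replicative helicase, went from 3637, 3515 and 3806 to 2207, 2686 and 2345 (-0.60 ± 0.079, adjusted p = 0.0003), MCM10 from 2106, 2260 and 2364 to 1390, 1131 and 1436, and MCM4, a subunit of the helicase, from 9686, 9664 and 9888 to 6930, 6892 and 7296. None of the 3 had overlapping groups, which held in this direction for 17.6% of all genes tested, and each fell by less than 2-fold. Of the G2/M and mitosis genes, 4 of 43 tested fell and 1 rose with all libraries, and 21 fell and 1 rose without replicate 2, at medians of -0.174 and -0.204, and with the 6 libraries alone 1 fell and 0 rose. CDC25A, a phosphatase that drives the cell cycle, fell from 2523, 2431 and 2591 to 1471, 1292 and 1489, and CDC25C rose from 1388, 1422 and 1439 to 1713, 2196 and 1779. MKI67, the proliferation marker, had 20837, 20621 and 21611 and 17607, 5926 and 17922, replicate 2 far below the rest, with an adjusted p of 0.159 with all libraries and a log2 fold change of -0.24 (adjusted p = 0.000133) without it. TOP2A had 20146, 21032 and 21645 and 20386, 14246 and 21043 and did not pass the test in either fit (adjusted p = 0.345 and 0.825). For DNA repair, 7 of 47 tested fell and 0 rose (median log2 fold change -0.239). In the other fit, without replicate 2, 22 fell and 3 rose (median -0.227), and with the 6 libraries alone 0 fell and 0 rose.

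Genes of the ribosome and of the respiratory chain read differently with and without replicate 2. Among cytosolic ribosomal proteins, which are short genes, 1 of 50 tested rose and 0 fell, with a median of 0.581. A median of 0.173 was found without replicate 2, where 22 rose and 0 fell, and with the 6 libraries alone 0 rose and 0 fell of 49. RPL3 had 58026, 56201 and 54302 at 10 nM and 70158, 99980 and 75513 after depletion, and RPL12 8157, 8317 and 8040 and 10242, 17514 and 10745, in both cases with a modest rise in replicates 1 and 3 and a larger value in replicate 2. In 38 of the 50 all depleted values were above all values at 10 nM, against 20.4% of all genes tested, and short genes were high in replicate 2. Of the factors of ribosome assembly and MYC, 5 of 33 tested fell and 4 rose with all libraries, and 22 fell and 5 rose without replicate 2, at medians of -0.222 and -0.335, and with the 6 libraries alone 0 fell and 1 rose. UTP20, which processes ribosomal RNA, fell from 2809, 2860 and 3067 to 1812, 1142 and 1870, whereas MYC rose from 7350, 6815 and 6572 to 8758, 9861 and 9282 (0.43 ± 0.076, adjusted p = 0.00224).

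In the nuclear genes of the respiratory chain the sign of the median turned. There 0 of 43 tested fell and 0 rose (median log2 fold change 0.197). Without replicate 2, 22 fell and 0 rose (median -0.179), and with the 6 libraries alone 0 fell and 0 rose. CYCS, cytochrome c, had 12223, 13111 and 13479 at 10 nM and 7915, 14480 and 8356 after depletion, and NDUFAB1, a subunit of complex I, 2008, 2007 and 1993 and 1456, 3948 and 1596. In both genes replicates 1 and 3 lay below all libraries at 10 nM and replicate 2 above them. Offsetting each library for its gene-length trend gave 2 lower, 0 higher and a median of 0.084. Of the 15 genes of the mitochondrial genome, 1 rose and 0 fell with all libraries, 2 rose and 0 fell without replicate 2, and 0 rose and 0 fell with the 6 libraries alone. The shares that rose, 6.67% and then 13.3%, are near those of all genes tested (6.15% and 14.4%).

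**Figure D5:**
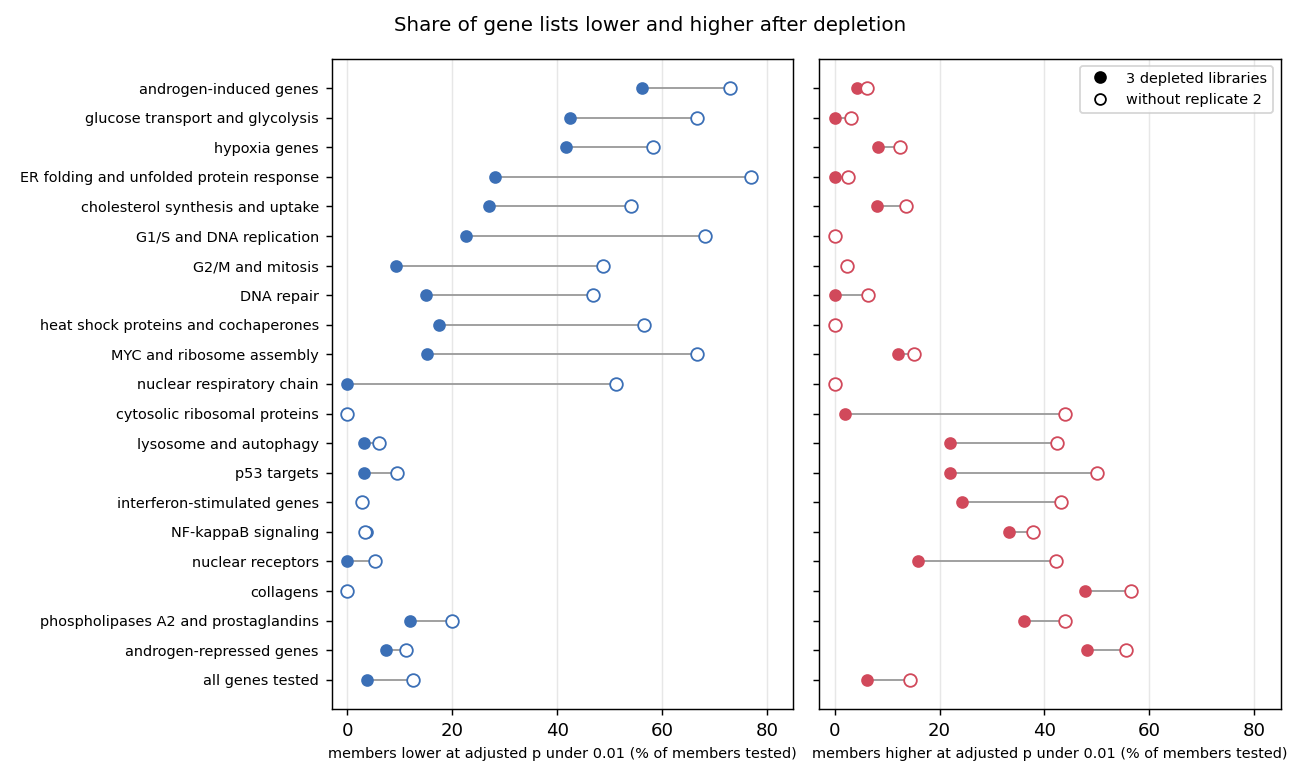
Share of the tested members of 20 gene lists, and of all genes tested, that were lower (left) or higher (right) at an adjusted p under 0.01, with the 3 depleted libraries (filled) and without replicate 2 (open), in percent. Open points lie further from 0 for most lists, as for all genes (3.83 to 12.6% lower, 6.15 to 14.4% higher), and the respiratory chain goes from 0 to 51.2% lower.

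Of p53 targets, 7 of 32 tested rose and 1 fell, with a median of 0.256. The fit without replicate 2 gave a median of 0.184, and 16 rose and 3 fell, and with the 6 libraries alone 3 rose and 1 fell. Beside IGFBP3 and THBS1, SESN1, a stress-induced inhibitor of mTORC1 signalling, rose from 911, 913 and 1041 to 2107, 2524 and 2187 (1.25 ± 0.087, adjusted p = 2.46e-06), and BBC3, the BH3 protein PUMA, from 74.3, 67.5 and 49.4 to 164, 264 and 174. CDKN1A, which encodes the cell cycle inhibitor p21, was not among them. It had 2252, 2291 and 2216 and 1888, 2293 and 1851, and without replicate 2 it was lower (log2 fold change -0.27, adjusted p = 0.00077). Of genes for apoptosis and death receptors, 9 of 35 tested rose and 2 fell with all libraries, and 9 rose and 3 fell without replicate 2, at medians of 0.0814 and 0.0945, and with the 6 libraries alone 3 rose and 0 fell of 34. TNFSF10, the death ligand TRAIL, rose from 855, 838 and 946 to 2605, 2846 and 2604 (1.61 ± 0.084, adjusted p = 3.03e-07), and its receptor gene TNFRSF10A fell from 576, 583 and 541 to 327, 143 and 321. Among lysosome and autophagy genes, 7 of 32 tested rose and 1 fell (median log2 fold change 0.271). With replicate 2 left out, 14 rose and 2 fell of 33 (median 0.167), and with the 6 libraries alone 0 rose and 0 fell. CTSF, a cathepsin, rose from 1666, 1612 and 1505 to 2906, 4544 and 2973.

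Some genes of the NF-kappaB pathway, which drives inflammatory transcription, rose. In that list, 9 of 27 tested rose and 1 fell, with a median of 0.423. Without replicate 2 the median was 0.284, and 11 rose and 1 fell of 29, and with the 6 libraries alone 4 rose and 0 fell. RELB, a subunit, rose from 189, 170.2 and 136 to 731, 1246 and 781 (2.48 ± 0.22, adjusted p = 1.58e-05), and NFKB2, its partner, from 791, 733 and 662 to 1427, 1498 and 1530 (1.03 ± 0.094, adjusted p = 1.98e-05). The feedback inhibitors TNFAIP3 and NFKBIA had 245, 222 and 249.8 and 1724, 1775 and 1667 at 10 nM, and 759.5, 501 and 665 and 3325, 4932 and 3294 after depletion. BIRC3, an apoptosis inhibitor and NF-kappaB target, rose from 74.3, 85.6 and 88.8 to 386, 256 and 340.3. RELA, the subunit of the canonical pathway, had 7460, 7176 and 6898 and 6672, 5670 and 6955 and did not pass the test (adjusted p = 0.215 with all libraries and 0.265 without replicate 2).

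Of interferon-stimulated genes, 9 of 37 tested rose and 1 fell with all libraries, and 16 rose and 1 fell without replicate 2, at medians of 0.621 and 0.677, and with the 6 libraries alone 3 rose and 0 fell. IRF8 and IRF1, which encode interferon regulatory factors (exon overlap of IRF1 22%), rose from 70.1, 72.3 and 79.6 to 202, 225 and 236 and from 135, 139.8 and 140.0 to 271, 314 and 272. OAS1, a sensor of double-stranded RNA, rose from 396, 378 and 423 to 661, 601 and 637, and ZBP1, a sensor of Z-form nucleic acid, fell from 71.1, 73.2 and 77.8 to 34.2, 21 and 26.8. IFITM3 (exon overlap 21.3%) and PLSCR1, both antiviral, rose at low levels, from 44.6, 33.3 and 29.3 to 65.1, 98.8 and 81.5 and from 15.9, 16.2 and 11 to 45.1, 46.9 and 37.1.

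The RefSeq windows of IFITM3 (chr11:320811-321110, minus strand) and PLSCR1 (chr3:146544558-146544857, minus strand), on GRCh38.p14, are shown because both rose and hold the interferon-stimulated response element, here GAAA repeated after 2 bases of any kind on either strand, in capitals.
IFITM3: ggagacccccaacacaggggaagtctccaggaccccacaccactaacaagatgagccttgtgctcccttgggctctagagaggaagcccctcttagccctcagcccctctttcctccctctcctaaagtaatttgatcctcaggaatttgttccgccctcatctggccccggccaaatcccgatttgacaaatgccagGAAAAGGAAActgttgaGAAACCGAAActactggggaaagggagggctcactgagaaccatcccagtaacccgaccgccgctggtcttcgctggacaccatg
PLSCR1: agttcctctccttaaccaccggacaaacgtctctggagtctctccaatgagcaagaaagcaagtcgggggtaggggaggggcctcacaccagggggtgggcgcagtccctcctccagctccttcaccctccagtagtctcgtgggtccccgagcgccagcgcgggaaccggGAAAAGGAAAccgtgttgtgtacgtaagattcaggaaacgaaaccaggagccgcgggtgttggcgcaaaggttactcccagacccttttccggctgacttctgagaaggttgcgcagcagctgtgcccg
The element was in 3 of the 7 windows found for list members that rose, in 22 of the 34 of all members and in 2.55% of those of all genes tested. In the genes called higher its share was 3.64%, and in those called lower 3.9%.

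Among matrix genes, in the collagens 11 of 23 tested rose and 0 fell (median log2 fold change 0.704). In the other fit, without replicate 2, 13 rose and 0 fell (median 0.712), and with the 6 libraries alone 1 rose and 0 fell of 22. COL16A1, a fibril-associated collagen, went from 44.6, 51.3 and 34.8 to 149, 226 and 165 (2.04 ± 0.21, adjusted p = 4.09e-05), COL28A1 from 91.3, 91.3 and 114 to 298, 179 and 264, and COL1A1, the main fibrillar chain, from 242, 198 and 172 to 402, 299 and 444. Among matrix glycoproteins and proteoglycans, 9 of 36 tested rose and 3 fell, with a median of 0.135. A median of 0.174 was found without replicate 2, where 12 rose and 4 fell, and with the 6 libraries alone 2 rose and 0 fell of 35. MGP, an inhibitor of calcification, rose from 160.3, 171 and 166 to 718, 1335 and 676 (2.45 ± 0.22, adjusted p = 1.63e-05), FN1, fibronectin, from 155, 142 and 170.2 to 405, 204 and 378, and LAMC1, a laminin chain, fell from 15060, 14770 and 15284 to 10185, 5791 and 9801. Of the integrins and adhesion molecules, 8 of 41 tested rose and 1 fell with all libraries, and 18 rose and 1 fell of 42 without replicate 2, at medians of 0.296 and 0.209, and with the 6 libraries alone 5 rose and 0 fell of 40, CD44 rising from 555, 565 and 624 to 1164, 1006 and 1160. SNAI2, a repressor of epithelial genes, fell from 209, 189 and 202 to 85.1, 87.7 and 83.5. In the list of epithelial to mesenchymal factors, 1 of 22 tested fell and 1 rose (median log2 fold change 0.0737). Without replicate 2, 3 fell and 3 rose (median 0.0918), and with the 6 libraries alone 1 fell and 0 rose of 20. These shares, 4.55% each way with all libraries, are near those of all genes tested. The fibroblast markers summed to 11.6 to 14.3 CPM (counts scaled to library size) at 10 nM and 26.4 to 33.4 after depletion, 3 of the 4 tested markers rising, and 5 of 10, COL1A2, COL3A1, PDGFRA, THY1 and MYH11, had at most 3 counts in every VCaP-T library.

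Developmental signalling genes moved both ways. In the hedgehog pathway, 4 of 17 tested rose and 1 fell, with a median of 0.218. The fit without replicate 2 gave a median of 0.337, and 9 rose and 1 fell, and with the 6 libraries alone 3 rose and 0 fell. IHH, the Indian hedgehog ligand, rose from 450.1, 423 and 337 to 1103, 1587 and 1163 (1.67 ± 0.15, adjusted p = 1.63e-05) next to SHH and SCUBE2, and HHAT, which attaches palmitate to the ligands, from 666, 646 and 722 to 1312, 1069 and 1327. PTCH1, the receptor and a target gene of the pathway, had 1127, 1037 and 1086 and 1648, 674 and 1470, and was higher without replicate 2 only (0.52, adjusted p = 3.1e-06, against 0.23 and 0.511 with it). For the BMP and TGF-beta list, 9 of 51 tested rose and 5 fell with all libraries, and 18 rose and 6 fell without replicate 2, at medians of 0.172 and 0.217, and with the 6 libraries alone 2 rose and 0 fell of 50. BMP2 rose from 169, 184 and 180.3 to 865, 885 and 785 (2.25 ± 0.13, adjusted p = 6.14e-07), and the target gene ID1 from 490.5, 422 and 330.3 to 1026, 2534 and 1135, where replicate 2 was more than 2-fold above its sisters.

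Of WNT ligands, receptors and feedback genes, 7 of 46 tested rose and 4 fell (median log2 fold change 0.148). With replicate 2 left out, 13 rose and 8 fell (median 0.291), and with the 6 libraries alone 1 rose and 2 fell of 45. LEF1, a nuclear mediator of the pathway, rose from 6286, 6154 and 6633 to 9901, 9856 and 10026 (0.64 ± 0.062, adjusted p = 3.05e-05), and the receptor genes FZD5 and LGR5 fell, from 2561, 2507 and 2540 to 1420, 1268 and 1445 and from 282, 282 and 266 to 138, 144 and 158. In IGF signalling, 4 of 21 tested rose and 2 fell with all libraries, and 7 rose and 4 fell of 22 without replicate 2, at medians of 0.0906 and 0.113, and with the 6 libraries alone 1 rose and 0 fell, the receptor gene IGF1R falling from 14504, 14317 and 14371 to 8868, 4180 and 8552. Of receptor tyrosine kinases and ligands, 6 of 28 tested rose and 3 fell with all libraries, and 10 rose and 6 fell of 29 without replicate 2, at medians of 0.12 and 0.213, and with the 6 libraries alone 0 rose and 0 fell. MET, the hepatocyte growth factor receptor, rose from 261, 292 and 318 to 745, 451 and 676, ERBB2 from 459.7, 467 and 441 to 837, 614 and 833, and EGFR had 3710, 3833 and 3743 and 3102, 1394 and 2990 (adjusted p = 0.0712, and 8.55e-05 without replicate 2, with a log2 fold change of -0.31).

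In the nuclear receptor list 6 of 38 tested rose and 0 fell (median log2 fold change 0.244). In the other fit, without replicate 2, 16 rose and 2 fell (median 0.293), and with the 6 libraries alone 1 rose and 0 fell of 37. NR1H4, the bile acid receptor FXR, rose from 27.6, 23.8 and 19.2 to 70.9, 101 and 63.9, and NR2F2 from 3079, 2945 and 2936 to 3827, 4326 and 3938. NR3C1, the glucocorticoid receptor, had 673, 625 and 657 and 794, 547 and 776 and did not pass the test (adjusted p = 0.604 and 0.0156). Of HOX genes, 4 of 23 tested rose and 1 fell, with a median of 0.353. A median of 0.249 was found without replicate 2, where 5 rose and 1 fell, and with the 6 libraries alone 1 rose and 0 fell. HOXA13 rose from 2670, 2750 and 2743 to 4544, 4127 and 4750 (0.72 ± 0.069, adjusted p = 2.95e-05), and HOXB13, the prostate HOX gene, had 13527, 12762 and 11442 and 13669, 15856 and 14632 (adjusted p = 0.0876).

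Markers of cell types were read in every library. Those of the prostate lumen came to 19300 to 19400 CPM in sum at 10 nM and 13700 to 14400 after depletion. In that list 4 of 13 tested fell and 0 rose with all libraries, and 7 fell and 2 rose without replicate 2, at medians of 0.0234 and -0.208, and with the 6 libraries alone 3 fell and 0 rose. The 4 were TMPRSS2, ERG, KLK2 and KLK3. KLK2 and KLK3 make up a large part of both luminal sums. Their share of all counted fragments was 1.14 to 1.15% at 10 nM and 0.611 to 0.635% after depletion. FOXA1, a factor that opens chromatin, had 18036, 17841 and 17568 and 18355, 16941 and 19022 (adjusted p = 0.832). Blood cell markers summed to 68.0 to 78.7 and 63.7 to 84.9 CPM with PTPRC, CD3E and HBB at most at 3 counts, endothelial ones to 17.2 to 18.4 and 16.7 to 19.3 with CDH5, KDR and EMCN likewise. PECAM1 of the endothelial list was called higher, from 36.1, 40.9 and 34.8 to 119, 141 and 110.4. The basal markers summed to 130 to 134 CPM at 10 nM and 60.7 to 152 after depletion, the lowest in replicate 2. Of the 4 tested, KRT15 and KRT14, the latter from 193, 199.7 and 163 to 50.1, 121 and 86.6, were called lower, 2 others were higher without replicate 2, and KRT5, KRT6A and KRT17 were at the same floor. The part of other cell types in the results was not tested.

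Some genes known from other tissues rose. The intestinal set summed to 187 to 195 CPM at 10 nM and 419 to 465 after depletion, and 6 of 15 tested rose and 1 fell (median log2 fold change 0.745). Without replicate 2, 9 rose and 1 fell of 16 (median 0.606), and with the 6 libraries alone 3 rose and 0 fell. CDH17, an adhesion protein of gut epithelium, rose from 459, 472 and 493 to 1345, 993 and 1221 and SI, sucrase-isomaltase, from 1728, 1800 and 1792 to 4208, 2623 and 4204, while 7 of the 24, among them CDX1, HNF4A and FABP1, had at most 3 counts in every VCaP-T library. The hepatocyte set summed to between 25.9 and 27.4 at 10 nM and between 53.3 and 67.7 after depletion, and 3 of 8 tested rose and 1 fell, with a median of 0.533. The fit without replicate 2 gave a median of 0.549, and 3 rose and 1 fell of 9, and with the 6 libraries alone 1 rose and 1 fell. ALB, albumin, rose from 211, 232 and 233 to 1130, 1437 and 1175 (2.46 ± 0.11, adjusted p = 9.47e-08), and 7 of the 20, APOA1 and the fibrinogen genes among them, were at that floor. The neuroendocrine set summed to 427 to 432 and 777 to 971, and 3 of 12 tested rose and 1 fell with all libraries, and 6 rose and 1 fell without replicate 2, at medians of 0.363 and 0.263, and with the 6 libraries alone 1 rose and 0 fell. SCGN, secretagogin, rose from 3715, 3657 and 3753 to 8646, 15664 and 9146 (1.59 ± 0.18, adjusted p = 0.0001), INSM1, a neuroendocrine factor, fell from 922, 871 and 824 to 466, 724 and 493, and CHGA and NEUROD1 were at most at 3 counts. In all 3 sets replicate 2 had the highest sum of all libraries.

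Genes that the authors' normalized table does not hold made up 78 of the 472 genes called higher and 42 of the 130 lower. The matching share of all genes tested is not given here, so these counts are a description only. MIR99AHG, the host transcript of a microRNA cluster, rose from 490.5, 523 and 500.5 to 1644, 1604 and 1668 (1.70 ± 0.088, adjusted p = 3.03e-07). The noncoding RNA LINC00511 rose from 152, 149 and 179 to 356, 363 and 343. ARLNC1, a noncoding RNA known to be induced by androgen, fell from 126, 158 and 142 to 54.2, 49.4 and 56.7 (-1.41 ± 0.14, adjusted p = 3.02e-05), LINC00920 from 540.4, 552 and 544 to 224, 235 and 241, and NKILA, a noncoding inhibitor of NF-kappaB, from 1340, 1335 and 1333 to 555, 453 and 541 (-1.37 ± 0.082, adjusted p = 8.85e-07).

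Some neighbouring genes moved together, a description added after the values had been seen. The longest run of adjacent tested protein-coding genes in 1 direction lay on chromosome 6 between positions 46159187 and 47309905 (GRCh38), a run of 11 genes that passed the adjusted p upward, from ENPP5 to TNFRSF21, of which 7 were called. A run is defined by its direction, and how often runs of this length arise by chance was not tested. In it RCAN2, a calcineurin inhibitor, rose 2.35, and the phospholipase gene PLA2G7 went from 620.0, 602 and 625 to 1486, 1487 and 1406 (1.25 ± 0.08, adjusted p = 1.35e-06), and the metalloprotease gene MEP1A from 2.12, 1.9 and 4.58 to 52.6, 30.9 and 52.6. ADGRF5, an adhesion receptor gene next to ADGRF1, had 185, 167 and 173 and 650.2, 380.3 and 555. On chromosome 6 as a whole 4.76% of tested genes were called higher, against 2.46% of all.

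On chromosome 7, ST7, WNT2, ASZ1, CFTR and CTTNBP2, between positions 116953238 and 117874139, were all called higher. ST7 had 1798, 1831 and 1995 and 6315, 7507 and 6558 (1.86 ± 0.082, adjusted p = 9.47e-08), although its exons overlap others over 22% of their length, and CFTR, the chloride channel of cystic fibrosis, had 10.6, 11.4 and 10.1 and 35, 28.4 and 38.2. At lower coordinates, CAV2, CAV1 and MET, between 116287380 and 116798386, were all called higher, CAV1, caveolin, going from 6.37, 4.75 and 10.1 to 40.9, 54.3 and 52.6. In the falling direction, SLC5A1, C22orf42, RFPL2 and SLC5A4 lay side by side on chromosome 22 between 32043032 and 32255341, all called lower, RFPL2 with 2584, 2697 and 2614 and 1098, 1176 and 983 (-1.28 ± 0.079, adjusted p = 1.16e-06). Chromosome 22 had 2.57% of its genes called lower, against 0.678% of all. KLK3, KLK2 and KLK4 on chromosome 19, between 50854915 and 50910738, fell together, KLK4 from 9978, 9354 and 9076 to 6421, 6473 and 7020.

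Depleted replicate 2 moved with its sisters in most called genes. For the genes called higher without it, its value lay at a median of 87.3% of the way from the mean at 10 nM to the mean of replicates 1 and 3 on the log2 scale. The quartiles were 53.4 and 113%, so that in many of them replicate 2 moved much less far. Of the 581 that were also tested with all libraries, 26 lay on the other side of the mean at 10 nM. For those called lower the median was 106% (quartiles 75.1 and 140%), with 2 of 133 on the other side. Of the genes called only without it (181 higher and 30 lower), SESN3, a sestrin, had 11163, 11343 and 11879 and 24170, 14413 and 23652, DNAH5, a dynein chain, 680.5, 683 and 750.3 and 1699, 847 and 1557, and BMF, a BH3 protein, 1122, 1118 and 1142 and 2399, 1587 and 2307. ODC1, which starts polyamine synthesis, had 18985, 19440 and 20123 and 8606, 13172 and 9078, NPY, neuropeptide Y, 398, 464 and 394 and 197, 389 and 202, and the WNT receptor gene FZD8 1515, 1446 and 1368 and 548, 1030 and 612. In each of the 6, replicate 2 lay between the libraries at 10 nM and its sisters. Of the genes called only with it (68 higher and 27 lower), GPX2, PBXIP1 and TMEM45B were higher at 1.06, 1.05 and 1.02 with it, and at 0.99, 0.96 and 0.97 without it.

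Other genes were far from both sisters in replicate 2. NCR3LG1, a ligand of natural killer cells, had 1230, 1242 and 1402 at 10 nM and 1214, 107 and 1067 after depletion, and POMK, a kinase of dystroglycan, 339, 341 and 325 and 286, 17.3 and 208. POTEI, of a family of near-identical genes, had 231, 232 and 229 and 361, 28.4 and 305. High in replicate 2 were SELENOM, a selenoprotein, with 71.1, 82.7 and 63.1 and 69.3, 263 and 77.3, and the mitochondrial tRNA gene MT-TI, with 669, 732 and 620.4 and 795, 2626 and 840.5. None of these 5 passed the test with all libraries, and POMK (adjusted p = 0.00476) and POTEI (adjusted p = 0.000319) passed it without replicate 2.

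The 2 VCaP-CT groups were compared with each other in the same model of 12 libraries that called the genes. Both comparisons thus share 1 estimate of the spread, and the choice of genes is not independent of the 2 VCaP-CT groups. Where VCaP-CT cells were moved from 0.1 to 10 nM T for 48 h, the median log2 fold change of the genes called higher on depletion was -1.26 and that of the genes called lower 1.83, beside -0.015 over all genes tested. The sign was opposite to that of depletion in 451 of 472 and in 129 of 130, against 68.7% of all genes tested. GPX3 was an exception, higher at the lower dose in VCaP-T (1.34) and higher at the higher dose in VCaP-CT (1.03).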

How the data were processed

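RNA of 12 libraries was sequenced from polyA-selected, stranded paired-end libraries. Per the file headers and the submitters' processing notes, the authors aligned reads with STAR 2.5.4b to GRCh38 and counted them with featureCounts 1.6.2 on Gencode release 28. The deposited counts are raw fragments per gene. Strand was not used, so reads of overlapping exons cannot be told apart, and fragments at several places were left out. The deposited signal table, counts divided by DESeq2 1.24.0 size factors by the authors, was used only to see which genes it holds. Total exon length comes from the count files.

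Counts were tested with edgeR 4.0.16 (R 4.3.3; limma 3.58.1), filterByExpr, TMM scaling and 1 quasi-likelihood model of 12 libraries in 4 groups, with Benjamini-Hochberg adjustment over all genes tested. Normalized counts are counts scaled by TMM effective library size and are not the authors' table. Library totals are given with the groups. Names came from Gencode release 44, matching 57754 of 58381 gene IDs, and promoter windows from RefSeq.

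The members and the 59 gene lists were chosen with earlier results of these data known. Named genes were the androgen targets; the 15 largest rises and 10 largest falls among genes called with and without depleted replicate 2 with a mean of 100 or more normalized counts in the higher group; the 6 largest differences in normalized counts in each direction; the members with the smallest p in each list, with any needed to describe it; genes far from their sisters in replicate 2; genes called only with or only without it; genes outside the authors' table; and neighbours in runs. Some genes that the rule names are not reported here. Alternatives were other scalings, filters, DESeq2 1.42.0, voom weights, fewer libraries, a replicate block and, added after seeing the data, an offset for gene length.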

Additional observations from a re-analysis of the deposited data

How the results depend on the processing

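The counts of called genes (472 higher and 130 lower) stayed within 1.5 times under the other scalings and filters, DESeq2, voom weights and the length offset. With the 6 VCaP-T libraries alone they were 163 and 56, and at the adjusted p alone 202 and 81, against 1178 and 733. Leaving out 1 library at a time gave 308 to 585 genes called higher and 98 to 172 lower, and at the adjusted p 582 to 2835 higher and 324 to 2485 lower, the highest adjusted p counts without depleted replicate 2 and the lowest without replicate 2 at 10 nM. At the adjusted p, leaving out replicates 1, 2 and 3 at 10 nM gave 647, 582 and 654 higher and 393, 324 and 373 lower. The 6 libraries without depleted replicate 2 gave 2537 and 2224, voom weights 3908 and 3209, and DESeq2 1406 lower. The causes were not tested. Of the 189 genes named, 77 lost the adjusted p threshold with the 6 libraries alone, and 22, 25 and 23 without replicates 1, 2 and 3 at 10 nM.

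Deviations of same-numbered libraries of the 2 groups correlated at -0.189, 0.0966 and 0.115, and those of differently numbered ones at -0.183 to 0.227. Depleted replicate 2 shapes the deviations of its whole group, so these values cannot tell whether the replicate numbers pair the samples. With the replicate block in the model of 12 libraries, 388 genes were called higher and 119 lower, and 475 were lower at the adjusted p. With the replicate block and the 6 libraries alone, 3 were higher and 1 lower, by either rule, and 162 of the genes named lost the adjusted p threshold.

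Differences of a few uncalled genes turned sign. NDUFAB1 was at -0.40 without replicate 2, -0.39 in the 6 libraries without it, -0.36 with voom weights and -0.044 with the length offset. POTEI was at -0.010 in the 6 libraries, -0.0051 with DESeq2, -0.22 and -0.42 with the replicate block in 12 and 6 libraries, and -0.44 and -0.20 without depleted replicates 1 and 3. FOXA1 was at -0.0017 in the 6 libraries, -0.0027 with the block there and -0.0082 without depleted replicate 3, PTCH1 at -0.0083 without depleted replicate 1, and SELENOM at -0.052 with voom weights. Over the fits that left out 1 library, the highest values were 0.067 for FOXA1, 0.47 for NDUFAB1, 0.53 for POTEI and 0.52 for PTCH1. With 3 libraries a group, of which 1 stood apart, small differences had a wide error, and what depth adds to it was not tested.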

Other observations

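In other gene groups some members passed the test. Of immediate early genes, which cells switch on within minutes of a stimulus, 5 of 25 tested rose and 0 fell (median log2 fold change 0.3). With replicate 2 left out, 7 rose and 2 fell (median 0.18), and with the 6 libraries alone 2 rose and 0 fell of 24. Beside NR4A2 and MYC, BTG2, an inhibitor of proliferation, went from 1338, 1400 and 1294 to 1959, 2165 and 2015 normalized counts and JUN, a subunit of AP-1, from 1927, 1828 and 1652 to 2799, 3155 and 2708. In the circadian clock, 5 of 23 tested rose and 2 fell, with a median of 0.192. Without replicate 2 the median was 0.191, and 10 rose and 4 fell, and with the 6 libraries alone 0 rose and 0 fell. PER1, a clock repressor, fell from 571, 454 and 436 to 289.6, 299 and 346, and NFIL3, a factor of the clock's output, rose from 456, 468 and 466 to 704, 829 and 693. For cytokine receptors and JAK-STAT, 6 of 40 tested rose and 3 fell with all libraries, and 12 rose and 6 fell without replicate 2, at medians of 0.0466 and 0.0912, and with the 6 libraries alone 0 rose and 1 fell of 39. Of NRF2 targets and glutathione genes, 4 of 31 tested rose and 1 fell (median log2 fold change 0.101). In the other fit, without replicate 2, 5 rose and 7 fell (median -0.0672), and with the 6 libraries alone 1 rose and 0 fell of 30.

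For axon guidance, 5 of 52 tested rose and 4 fell, with a median of 0.101. A median of 0.223 was found without replicate 2, where 15 rose and 4 fell of 53, and with the 6 libraries alone 2 rose and 1 fell of 49. In the ion channels, 3 of 42 tested fell and 2 rose with all libraries, and 8 fell and 13 rose of 43 without replicate 2, at medians of 0.151 and 0.259, and with the 6 libraries alone 0 fell and 0 rose. With all libraries 4.76% rose and 7.14% fell, beside 6.15% and 3.83% of all genes tested. TRPM8, a cold-gated channel known from prostate, fell from 6999, 7237 and 7316 to 5336, 4592 and 5103. Of amino acid transporters, 3 of 27 tested fell and 1 rose (median log2 fold change -0.104). Without replicate 2, 9 fell and 3 rose (median -0.0239), and with the 6 libraries alone 0 fell and 1 rose of 26. SLC38A4, one of them, fell from 18.1, 13.3 and 19.2 to 2.5, 0 and 1.03.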
